A study of Mus musculus with 6 samples.

Results

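The nuclear tRNA genes for glutamine (Gln), glutamate (Glu) and lysine (Lys) were examined in RNA that was recovered with the mouse protein Gtsf1. They were taken by name, as every tRNA feature of the deposited files whose name gives 1 of these 3 amino acids. There were 89 such genes among 869 tRNA features and 1753368 features of all kinds. Gln had 20 genes, of which 12 carry the anticodon CTG, 7 carry TTG and 1 has no anticodon in its name. Glu had 23 genes, with 13 of CTC, 8 of TTC and 2 without an anticodon. Lys had 46 genes, with 24 of CTT, 10 of TTT and 12 without an anticodon.

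Gtsf1, also called Asterix, is a zinc-finger factor of the piRNA pathway, which silences transposons in the germ line. Its bound RNA was sequenced by eCLIP, a method that fixes RNA to protein with ultraviolet light and then purifies the protein under stringent washes, and the comparison asks which RNAs the protein contacts. All 6 libraries came from P19 cells, a mouse embryonal carcinoma line, that had been transiently transfected with mouse Gtsf1 carrying a TEV-Strep tag in the pEF vector. The groups were crosslinked pull-down (254 nm light, captured on MagStrep XT beads, n = 2), crosslinked input (the same light, lysate before capture, n = 2), non-crosslinked pull-down (no light, same beads, n = 1) and non-crosslinked input (no light, n = 1). No library of untransfected cells or of another tagged protein was analysed here. The labels do not say whether replicates 1 and 2 came from separate cultures, so p-values measure only the spread between these libraries, which may be technical.

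A tRNA carries an amino acid to the ribosome and reads a codon through its anticodon. Isoacceptors are tRNAs for 1 amino acid with different anticodons, and isodecoders share the anticodon but differ elsewhere in sequence. In Gln-TTG, Glu-TTC and Lys-TTT the first anticodon base, the wobble base, is a uridine, which in animals is built up to a thiolated, methoxycarbonylmethylated form by dedicated modifying enzymes. Their partners Gln-CTG, Glu-CTC and Lys-CTT have cytidine in that place. A gene name in the files gives the amino acid, the anticodon in DNA letters, the isodecoder number and the copy number, so that Gln-CTG-2-1 is copy 1 of isodecoder 2.

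Library totals ranged from 13168593 to 18418166 reads, so 1 read was worth between 0.0543 and 0.0759 RPM (reads per 1000000 reads of the library). All tRNA genes together made up 0.105% of each crosslinked input, 0.338% and 0.903% of crosslinked pull-downs 1 and 2, and 0.114% and 0.0915% of the non-crosslinked input and pull-down. RPM are shares of a library, so they do not tell how much RNA the beads held. Exons of the transfected gene, Gtsf1, had 44.4 and 42.3 RPM in crosslinked inputs, 103.6 and 239.8 RPM in crosslinked pull-downs, with 21.8 and 15.4 RPM in the non-crosslinked input and pull-down. Of 8 embryonal carcinoma markers, 5 reached a mean of 1 RPM in inputs, and Nanog, Dppa5a and Zfp42 did not. Summed exon levels in the inputs were 58.4 to 73.8 RPM for those 8 genes, against at most 2.47 RPM for each of the lists for neural, fibroblast, mesoderm and endoderm cells. The 4 endoderm genes summed to between 0.0707 and 0.676 RPM in inputs and between 2.61 and 4.11 RPM in pull-downs, and the part of this in the tRNA values was not tested.

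Counts of single genes hold fractions of reads, and how reads that match several copies were counted is not given in the sources used here. Within isodecoders with more than 1 tested copy, the highest copy was at most 1.08 times the lowest in either crosslinked pull-down. In the inputs copies could differ more: Glu-TTC-1-3 had 609 reads in crosslinked input 1, where the lowest copy of Glu-TTC-1 had 498, and 450 against 322 in the non-crosslinked input. Copies are therefore not treated as separate measurements, and sums over genes are given first. Isodecoders could share reads too. Gln-TTG-1-1 and Gln-TTG-3-1 both had 5.25 and 3.05 reads in crosslinked inputs 1 and 2. Gln-CTG-1 and Gln-CTG-6 both had 7.84 reads in the non-crosslinked pull-down. Sums by isodecoder are therefore not treated as separate measurements either. The Gln sums were whole numbers of reads in every library (48 and 19 in crosslinked inputs, 4209 and 9707 in crosslinked pull-downs, 26 and 185 in the non-crosslinked input and pull-down). RefSeq (GRCm38.p6) lists 62 genes for these anticodons, all 72 bases long for Gln and Glu and 73 for Lys, so lengths differ little among these 62. The lengths of the 89 genes of the files were not checked one by one.

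Gln tRNA was scarce in every input and abundant in both crosslinked pull-downs. The summed level was 2.75 and 1.03 RPM in crosslinked inputs 1 and 2, 261 and 613 RPM in crosslinked pull-downs 1 and 2, with 1.84 and 14.0 RPM in the non-crosslinked input and pull-down. Both crosslinked pull-downs lay far above all other libraries, and the non-crosslinked pull-down lay above every input. The mean was 437 ± 249 RPM in crosslinked pull-downs and 1.89 ± 1.21 RPM in crosslinked inputs (SD, n = 2 each), a 231-fold difference. It was 95-fold in pair 1 and 595-fold in pair 2 (pull-down and input of the same number), and 7.65-fold in the non-crosslinked pair. The log2 ratio of the crosslinked groups in edgeR's quasi-likelihood test was 7.96 (SE 0.67, adjusted p = 0.000541). It was 8.80 without crosslinked input 1 and 7.19 without crosslinked pull-down 2. In that table, with tRNA genes summed by amino acid, 6.01% of 39634 features were called higher at an adjusted p under 0.05 and 3.61% lower, and pull-downs lay above inputs without overlap for 10.2%.

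Both Gln isoacceptors rose. Gln-CTG had 1.60 and 0.513 RPM in crosslinked inputs, 174 and 415 RPM in crosslinked pull-downs, with 0.535 and 8.08 RPM in the non-crosslinked input and pull-down. This was 279-fold over input with crosslinking and 15.1-fold without. The edgeR log2 ratio was 8.24 (SE 0.70, adjusted p = 0.00059). Gln-TTG, the wobble-uridine partner, had 1.14 and 0.511 RPM in crosslinked inputs, 74.3 and 172 RPM in crosslinked pull-downs, with 1.30 and 5.28 RPM in the non-crosslinked input and pull-down. It was 149-fold over input with crosslinking and 4.05-fold without, and its log2 ratio by edgeR was 7.33 (SE 0.60, adjusted p = 0.000508). Gln-TTG averaged only 0.826 RPM in crosslinked inputs. It passed the filter on low values (a mean of 1 RPM over the 4 crosslinked libraries) only through the pull-downs, so its call is no support. Pull-downs and inputs did not overlap for either isoacceptor. Without crosslinked input 1 the log2 ratios were 9.30 for Gln-CTG and 8.04 for Gln-TTG, and without crosslinked pull-down 2 they were 7.46 and 6.59. In the table of sums by anticodon, 6.07% of 39664 features were called higher, and pull-downs lay above inputs without overlap for 10.3%.

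The test of single genes covered 55 of the 89, namely 17 Gln, 19 Glu and 19 Lys genes that averaged 1 RPM or more in the 4 crosslinked libraries. Of these, 46 were called higher and 0 lower (54 higher at an edgeR unadjusted p under 0.05), where 6.44% of all 39872 tested features were called higher and 3.50% lower. With TMM factors the calls over all features were 2749 higher and 627 lower in place of 2566 and 1394, and with all reads as library size 2558 and 2216. The number of called members was 46 under both, and it was 0 without the filter on low values, where edgeR called 0 of 942743 features (27538 higher at an unadjusted p under 0.05). The called genes were 17 of 17 tested for Gln, 10 of 19 for Glu and 19 of 19 for Lys, and all 10 of Glu were CTC genes. The counts and medians for Gln and Lys are no support, since 0 of these genes averaged 1 RPM in the inputs (0.00744 to 0.276 RPM for Gln, 0.0512 to 0.765 RPM for Lys) and they passed the filter on low values only through the pull-downs. The tested Glu genes averaged 1.28 to 40.6 RPM in the inputs, so they did not need the pull-downs to pass. Counts of called members with 1 crosslinked library left out are not given, since 1 group then held a single library. With the replicate number as a block 1 Glu gene was called, beside the 17 Gln and 19 Lys genes, where 2529 of 39872 features were called higher and 1655 lower. Median edgeR log2 ratios of the tested genes were 8.13 for Gln, 1.51 for Glu and 5.19 for Lys. The same median was 3.85 over 205 other tested tRNA genes, of which 187 were called higher and 0 lower, and -0.21 over all features. The 34 untested genes (3 Gln, 4 Glu and 27 Lys) had at most 1.64 RPM on average in crosslinked pull-downs, and in 24 of them both pull-downs still lay above both inputs. That held for 54 of the 55 tested genes, where it held for 10.8% of all tested features. Over all 89 genes it held for 78, where without the filter it held for 132221 of 942743 features with reads in crosslinked libraries.

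Summed by isodecoder, 19 of 23 tested sums and genes without anticodon were called higher and 0 lower, where 6.21% of all features of that table were called higher and 3.54% lower. Here too each Gln sum averaged under 1 RPM in the inputs and passed the filter only through the pull-downs. Among the Gln isodecoders, Gln-CTG-2 (4 copies) was the most abundant in the pull-downs. It had 0.706 and 0.286 RPM in crosslinked inputs, 71.4 and 179.6 RPM in crosslinked pull-downs, with 0.283 and 3.21 RPM in the non-crosslinked input and pull-down. Gln-CTG-3 (3 copies) had 0.587 and 0.174 RPM in inputs, 52.4 and 128 RPM in pull-downs, and 0.182 and 2.55 RPM in the non-crosslinked input and pull-down. Their edgeR log2 ratios were 8.12 (SE 0.67, adjusted p = 0.000575) and 8.02 (SE 0.69, adjusted p = 0.000666). Both lay close to the ratio of Gln-CTG as a whole. Gln-CTG-5, a single gene, was at 0.116 and 0.0136 RPM in inputs, 21.1 and 40.6 RPM in pull-downs, and 0.0707 and 0.868 RPM in the non-crosslinked input and pull-down. That is a 477-fold difference, but the few input reads leave a 95% counting interval from 152 to 4561.

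For 7 Gln genes both crosslinked inputs rounded to 0 reads. The 3 of these that were not tested had at most 0.102 RPM on average in crosslinked pull-downs. For the 4 that were tested only a lower bound can be given against 3 reads per library. The difference was at least 123-fold for Gln-CTG-1-1, at least 122-fold for Gln-CTG-6-1, at least 112-fold for Gln-TTG-5-1 and at least 113-fold for Gln-9909, which has no anticodon in its name. Gln-CTG-1-1 had 12.9 and 29.3 RPM in crosslinked pull-downs and 0.595 RPM in the pull-down without crosslinking. Against the non-crosslinked input the 4 bounds were between 2.81 and 3.32. These 4 genes had similar levels in the pull-downs, and which sequence features they share was not examined. Gln-CTG-4-1 had the lowest ratio of the tested Gln genes, with 0.152 and 0.0136 RPM in inputs, 3.53 and 8.63 RPM in pull-downs and 0.273 RPM in the pull-down without crosslinking. Its edgeR log2 ratio was 6.15 (SE 0.86, adjusted p = 0.00659). That value rests on crosslinked input 1: without it the remaining input rounds to 0 reads and the fitted ratio is 9.71, which is no bound, and without input 2 it is 5.19.

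Of the 6 TTG isodecoders of Gln, Gln-TTG-4 and Gln-TTG-6 were not tested, with 0.102 and 0.0888 RPM on average in crosslinked pull-downs. Gln-TTG-3 (2 copies) had 0.687 and 0.331 RPM in inputs, 32.5 and 78.7 RPM in pull-downs, and 0.868 and 2.48 RPM in the non-crosslinked input and pull-down. The single gene Gln-TTG-1-1 had 0.301 and 0.166 RPM in inputs, 16.2 and 39.0 RPM in pull-downs, and 0.434 and 1.24 RPM without crosslinking. Both were 2.85-fold over input without crosslinking, against 109-fold and 118-fold with crosslinking. Gln-TTG-2-1 had 0.134 and 0.00724 RPM in inputs and 13.0 and 27.9 RPM in pull-downs, with 0.779 RPM in the pull-down without crosslinking and no read in its input. Gln-TTG-1, -2 and -3 had edgeR log2 ratios between 6.87 and 8.43, each with an adjusted p under the threshold. The highest, that of Gln-TTG-2, ran from 7.49 without crosslinked input 2 to 11.45 without crosslinked input 1, where the remaining input rounds to 0 reads and the fitted ratio is no bound.

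Glu tRNA was abundant in the inputs, and its ratio over input was the lowest of the 3 amino acids. Glu had 290 and 233 RPM in crosslinked inputs, 368 and 941 RPM in crosslinked pull-downs, with 326 and 181 RPM in the non-crosslinked input and pull-down. The crosslinked pull-downs lay above both inputs, pull-down 1 by less than pull-down 2, and the non-crosslinked pull-down lay below every input. The mean was 654 ± 405 RPM in crosslinked pull-downs and 262 ± 40.5 RPM in crosslinked inputs (SD, n = 2 each), a 2.50-fold difference (1.27-fold in pair 1, 4.04-fold in pair 2). The log2 ratio by edgeR was 1.42 (SE 0.43) and did not pass the test, at an adjusted p of 0.106. It passed with DESeq2 (0.00456) and in the edgeR fits without crosslinked input 1 (adjusted p = 0.0202), crosslinked input 2 (0.0445) or crosslinked pull-down 1 (0.00259). Without crosslinked pull-down 2 the log2 ratio was 0.57 (adjusted p = 0.308). In each fit with a library left out, 1 group had a single library, which was assumed to vary like the other group, so the spread came from that other group alone; without pull-down 1 the difference between the pull-downs no longer counted. The non-crosslinked ratio was 0.555-fold. Over all tested features with reads on both sides the median ratio was 0.810-fold with crosslinking and 0.530-fold without, so the non-crosslinked Glu ratio lay near that of the typical feature.

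The isoacceptors of Glu differed in whether the rise passed the test. Glu-CTC had 71.7 and 61.9 RPM in crosslinked inputs, 137 and 252 RPM in crosslinked pull-downs, with 134 and 80.3 RPM in the non-crosslinked input and pull-down. It rose 2.91-fold with crosslinking and was 0.598-fold without. Its edgeR log2 ratio was 1.64 (SE 0.32, adjusted p = 0.0234), and the call was lost with the replicate number as a block (adjusted p = 0.0581). Glu-TTC had 218 and 171 RPM in crosslinked inputs, 231 and 688 RPM in crosslinked pull-downs, with 191 and 100.5 RPM in the non-crosslinked input and pull-down. Pull-down 1 was only 1.06-fold over its input, while pull-down 2 was 4.03-fold over its own. The log2 ratio by edgeR was 1.34 (SE 0.49, adjusted p = 0.166) and missed the threshold, and it passed with DESeq2 (adjusted p = 0.0209). It also passed without crosslinked pull-down 1 (1.93, adjusted p = 0.00287), where the inputs alone gave the spread, and without crosslinked pull-down 2 the log2 ratio was 0.33 (adjusted p = 0.631). Whether CTC and TTC differ is given below as their share of the Glu reads.

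Most Glu reads came from few isodecoders. Glu-CTC-1 (9 copies) had 68.8 and 59.3 RPM in inputs, 131 and 244 RPM in pull-downs, and 133 and 77.8 RPM in the non-crosslinked input and pull-down, and its log2 ratio by edgeR was 1.65 (SE 0.32, adjusted p = 0.0248). The single gene Glu-CTC-2-1 had 1.35 and 1.22 RPM in inputs, 2.15 and 3.19 RPM in pull-downs, and 0.853 and 1.10 RPM without crosslinking. It was also called, with a log2 ratio of 1.11 (SE 0.24, adjusted p = 0.0384). Glu-CTC-4-1 had the lowest ratio of all tested members, at 1.46 and 1.25 RPM in inputs, 1.84 and 2.89 RPM in pull-downs, and 0.942 and 0.969 RPM without crosslinking. It was not called, with an edgeR log2 ratio at 0.92 (SE 0.27, adjusted p = 0.0945).

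Of the TTC isodecoders of Glu, none was called. Glu-TTC-1 (4 copies) had 120.5 and 95.3 RPM in inputs and 115 and 351 RPM in pull-downs, so that pull-down 1 lay between the inputs. Glu-TTC-2 (2 copies) had 92.1 and 70.4 RPM in inputs and 108 and 322 RPM in pull-downs. Glu-TTC-3 (2 copies) had 5.86 and 5.23 RPM in inputs and 7.38 and 15.3 RPM in pull-downs. For Glu-TTC-2 and Glu-TTC-3 both pull-downs lay above both inputs. In the non-crosslinked pair the ratios were 0.506-fold for Glu-TTC-1, 0.522-fold for Glu-TTC-2 and 0.932-fold for Glu-TTC-3. The edgeR adjusted p-values in crosslinked libraries were 0.212, 0.128 and 0.107 for Glu-TTC-1, -2 and -3, with log2 ratios of 1.21, 1.504 and 1.13.

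Lys tRNA rose with crosslinking and was also higher in the pull-down without it. Lys had 8.47 and 7.12 RPM in crosslinked inputs, 122 and 215 RPM in crosslinked pull-downs, with 3.59 and 50.7 RPM in the non-crosslinked input and pull-down. All 3 pull-downs lay above all 3 inputs. The mean was 169 ± 65.5 RPM in crosslinked pull-downs and 7.80 ± 0.951 RPM in crosslinked inputs (SD, n = 2 each), a 21.6-fold difference (14.4-fold in pair 1, 30.2-fold in pair 2). The non-crosslinked ratio was 14.2-fold, with a 95% counting interval from 10.6 to 19.1. The edgeR log2 ratio with crosslinking was 4.53 (SE 0.34, adjusted p = 0.00038).

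Lys-CTT had 6.92 and 6.07 RPM in crosslinked inputs, 75.3 and 141 RPM in crosslinked pull-downs, with 3.25 and 25.0 RPM in the non-crosslinked input and pull-down. It rose 16.6-fold with crosslinking (edgeR log2 ratio 4.15, SE 0.36, adjusted p = 0.000607) and was 7.70-fold higher without. Lys-TTT, which reads AAA codons, had 1.26 and 0.514 RPM in crosslinked inputs, 41.9 and 65.8 RPM in crosslinked pull-downs, with 0.283 and 24.8 RPM in the non-crosslinked input and pull-down. It rose 60.7-fold with crosslinking (edgeR log2 ratio 6.04, SE 0.44, adjusted p = 0.000352) and was 87.6-fold higher without. Lys-TTT averaged 0.887 RPM in crosslinked inputs and passed the filter on low values only through the pull-downs, so its call is no support. The non-crosslinked input held 4 reads of Lys-TTT, so the counting interval of that ratio ran from 33.9 to 323. The crosslinked ratio was 33.3-fold in pair 1 and 128-fold in pair 2, on either side of the non-crosslinked one, and its log2 ratio ran from 5.52 without crosslinked input 2 to 6.84 without crosslinked input 1. Both isoacceptors were higher in every pull-down than in any input.

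**Figure D1:**
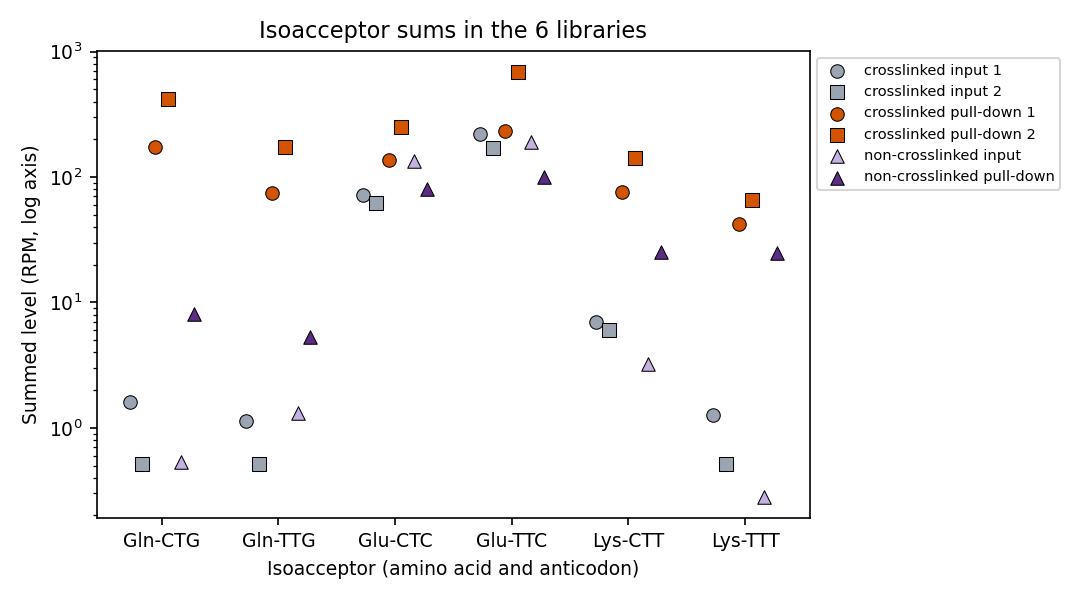
Summed level of each isoacceptor (x axis) in RPM on a log axis (y axis), with 1 point for each of the 6 libraries. Grey points are crosslinked inputs, orange points crosslinked pull-downs, and light and dark triangles the non-crosslinked input and pull-down. Gln-CTG goes from 1.60 and 0.513 RPM in crosslinked inputs to 174 and 415 RPM in crosslinked pull-downs, while the non-crosslinked pull-down lies below its input for Glu-CTC and Glu-TTC and far above it for Lys-TTT.

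Within Lys, 6 isodecoders and genes without anticodon were tested and all were called higher, of which only Lys-CTT-2 and Lys-CTT-3 averaged 1 RPM or more in the inputs. Lys-CTT-3 (7 tested copies) had 5.24 and 5.21 RPM in inputs, 51.7 and 102 RPM in pull-downs, and 2.48 and 15.5 RPM without crosslinking (edgeR log2 ratio 3.97, SE 0.37, adjusted p = 0.000976). Lys-CTT-2 (2 copies) had 1.56 and 0.774 RPM in inputs, 20.9 and 35.1 RPM in pull-downs, and 0.699 and 9.27 RPM without crosslinking (log2 ratio 4.70). Lys-TTT-1 (6 copies) had 1.07 and 0.393 RPM in inputs, 33.6 and 50.0 RPM in pull-downs, and 0.283 and 21.5 RPM without crosslinking. It carried most of the Lys-TTT reads in every library. Lys-TTT-2 (2 copies) had 0.146 and 0.0585 RPM in inputs, 6.29 and 12.2 RPM in pull-downs, and 2.62 RPM in the pull-down without crosslinking, with no read in its input (at least 12.4-fold). Lys-TTT-5 and Lys-72986 had 1.70 and 1.77 RPM in pull-down 1 and 2.63 and 3.36 RPM in pull-down 2. Their log2 ratios were 5.19 and 5.44.

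Every one of the 55 tested genes was higher in crosslinked pull-down 2 than in crosslinked pull-down 1. The ratio of pull-down 2 to pull-down 1 was 2.38 for Gln-CTG, 2.31 for Gln-TTG, 1.85 for Glu-CTC, 2.98 for Glu-TTC, 1.87 for Lys-CTT and 1.57 for Lys-TTT. Over the 41 other isoacceptors it had a median of 2.17 and ran from 1.24 to 3.29, so these 6 lay inside the range of the rest. The spread of the pull-down means is therefore wide for all 3 amino acids.

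Gln and Glu stood at opposite ends of the tRNAs. Among 22 amino-acid groups (selenocysteine and initiator methionine counted apart), the crosslinked ratio over input ranked first for Gln, 6 for Lys and 22 for Glu. In the non-crosslinked pair Gln ranked 7, Lys 3 and Glu 20. By level, Glu ranked 2 in crosslinked inputs and 3 in crosslinked pull-downs, and Gln ranked 17 in the inputs and 5 in the pull-downs. The ranks are descriptions, with no test of the order. Among 47 isoacceptors, the crosslinked ratio ranked first for Gln-CTG, 2 for Gln-TTG, 4 for Lys-TTT, 19 for Lys-CTT, 46 for Glu-CTC and 47 for Glu-TTC. These ranks use the mean of each group; in pair 1 alone His-GTG (82.7-fold) lay above Gln-TTG (65.2-fold), and in pair 2 alone Lys-TTT (128-fold) lay below Thr-CGT (197-fold). Gln-CTG had 109-fold in pair 1 and 809-fold in pair 2, above each of these in the same pair. Without crosslinking, Lys-TTT ranked first, Gln-CTG 5, Lys-CTT 12, Gln-TTG 18, Glu-CTC 40 and Glu-TTC 42. The other 41 isoacceptors had a median ratio of 13.6-fold with crosslinking and 2.37-fold without.

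**Figure D2:**
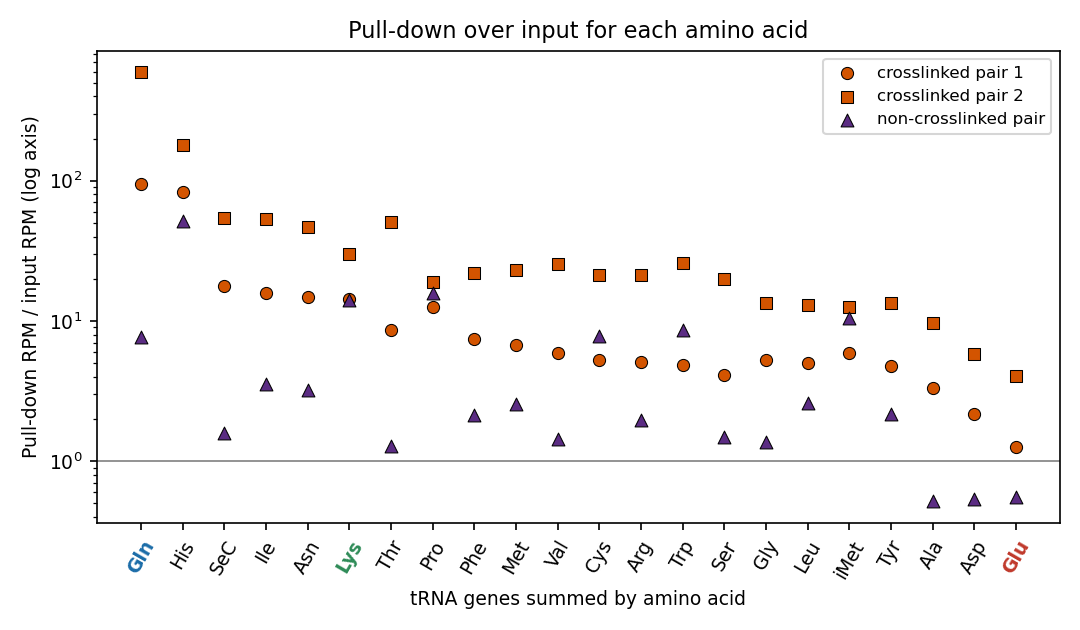
Pull-down over input (y axis, ratio of RPM on a log axis) for tRNA genes summed by amino acid (x axis, sorted by the crosslinked ratio), with orange points for crosslinked pairs 1 and 2 and triangles for the non-crosslinked pair. Gln is at 95 and 595 in the crosslinked pairs and 7.65 in the non-crosslinked pair, Lys at 14.4, 30.2 and 14.2, and Glu at 1.27, 4.04 and 0.555; the grey line marks equal levels.

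The 3 amino acids changed place relative to each other. The ratio of Gln to Glu reads, which does not depend on library size, was 0.00947 and 0.00443 in crosslinked inputs, 0.710 and 0.652 in crosslinked pull-downs, 0.00564 in the non-crosslinked input and 0.0777 in the non-crosslinked pull-down. Crosslinked pull-downs thus held fewer Gln than Glu reads, but at a far more even ratio than any other library. The ratio of Lys to Glu reads was 0.0292 and 0.0306 in crosslinked inputs, 0.332 and 0.229 in crosslinked pull-downs, 0.0110 in the non-crosslinked input and 0.280 in the non-crosslinked pull-down. For Gln over Lys the ratio was 0.325 and 0.145 in crosslinked inputs, 2.14 and 2.85 in crosslinked pull-downs, 0.513 in the non-crosslinked input and 0.277 in the non-crosslinked pull-down. Gln thus exceeded Lys in crosslinked pull-downs and was below it in the other 4 libraries.

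As a share of all tRNA reads, Gln was 0.262% and 0.0982% in crosslinked inputs, 7.74% and 6.79% in crosslinked pull-downs, and 0.162% and 1.54% in the non-crosslinked input and pull-down. Glu was 27.7% and 22.2% in crosslinked inputs, 10.9% and 10.4% in crosslinked pull-downs, and 28.7% and 19.8% without crosslinking. Lys was 0.809% and 0.678% in crosslinked inputs, 3.62% and 2.38% in crosslinked pull-downs, and 0.316% and 5.55% without crosslinking. The share of Gln and Lys was thus larger, and that of Glu smaller, in each pull-down than in its input. Together the 3 amino acids made up 28.8% and 22.9% of the tRNA reads in crosslinked inputs and 22.3% and 19.6% in crosslinked pull-downs. In these ratios and shares the crosslinked groups did not overlap, but the 2 against 2 libraries allow only 6 splits, and the two-sided exact permutation test gave its smallest p of 0.333 for each of 16 quantities (0.333 after Benjamini-Hochberg adjustment).

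The share of the wobble-uridine isoacceptor was lower in the pull-downs than in the inputs for Gln and higher for Lys. Gln-TTG made up 41.6% (95% Wilson interval 28.8 to 55.7%) and 49.9% (27.3 to 68.3%) of the CTG and TTG reads in crosslinked inputs, and 29.9% (28.5 to 31.4%) and 29.3% (28.4 to 30.2%) in crosslinked pull-downs. Without crosslinking it was 70.9% (50.0 to 83.5%) in the input and 39.5% (32.3 to 46.6%) in the pull-down. Every pull-down was below its input, but the intervals of crosslinked inputs and pull-downs overlap, and the inputs held only 48 and 19 Gln reads. Intervals cover counting error only.

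Glu-TTC made up 75.3% (74.1 to 76.5%) and 73.4% (72.1 to 74.7%) of the Glu reads in crosslinked inputs, 62.8% (61.6 to 64.1%) and 73.2% (72.4 to 73.9%) in crosslinked pull-downs, and 58.7% (57.3 to 60.1%) and 55.6% (53.6 to 57.6%) in the non-crosslinked input and pull-down. Pull-down 2 did not differ from input 2 beyond counting error, while pull-down 1 was lower. Lys-TTT made up 15.4% (10.4 to 22.2%) and 7.81% (3.96 to 13.5%) of the CTT and TTT reads of Lys in crosslinked inputs, and 35.8% (33.6 to 37.9%) and 31.8% (30.3 to 33.4%) in crosslinked pull-downs. Without crosslinking it was 8.00% (3.15 to 18.8%) in the input and 49.7% (45.9 to 53.5%) in the pull-down. Here every pull-down lay above every input, with no overlap of the intervals. The mean share in crosslinked pull-downs minus that in the inputs was -16.2 percentage points for Gln-TTG, -6.36 for Glu-TTC and 22.2 for Lys-TTT, each with the smallest exact permutation p of 0.333. Leaving out crosslinked pull-down 1 brought the Glu-TTC difference to -1.19 points.

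**Figure D3:**
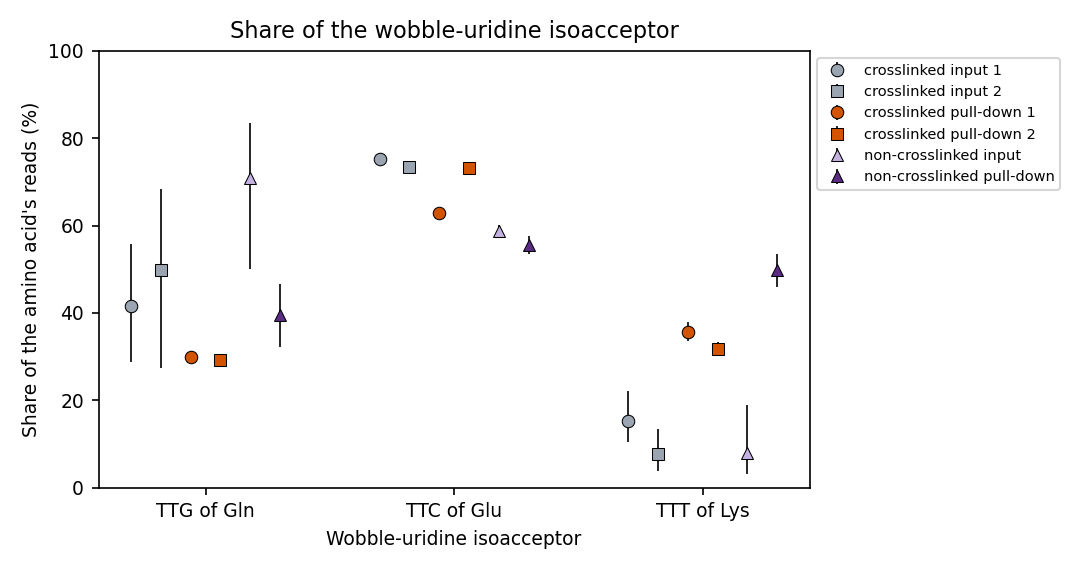
Share of the wobble-uridine isoacceptor among the reads of both isoacceptors of its amino acid (y axis, percent) in each of the 6 libraries, with 95% Wilson intervals as bars. Lys-TTT goes from 15.4% and 7.81% in crosslinked inputs to 35.8% and 31.8% in crosslinked pull-downs and 49.7% in the non-crosslinked pull-down, whereas Gln-TTG is lower in each pull-down than in its input.

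Whether the ratio over input depended on crosslinking was tested as the difference of the log2 ratios, crosslinked minus non-crosslinked, over all 6 libraries. The single library of each non-crosslinked group was assumed to vary like the crosslinked replicates. The edgeR test called 0 of 39634 features in the table of amino-acid sums, where 11.6% (4602) were higher at an unadjusted p under 0.05. limma with trend also called 0, and DESeq2 called 8 higher and 213 lower. The median difference over all features was 0.56 on the log2 scale, and with TMM factors it was -0.01 and 1.49% of features were higher at an unadjusted p under 0.05.

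Of the 3 amino acids the difference was largest for Gln, at 4.92 (edgeR adjusted p = 0.327), which is 4.37 above the median of all features. Unadjusted p-values under 0.05 were found for Gln (edgeR, 0.00255), Gln-CTG (0.0217), Gln-TTG (0.00213), Glu (0.0236), Glu-CTC (0.00476) and Glu-TTC (0.0380), and not for Lys or its isoacceptors. Both Gln isoacceptors had differences of that order, 4.32 for Gln-CTG (adjusted p = 0.334) and 5.19 for Gln-TTG (adjusted p = 0.329) with edgeR. DESeq2 called all 3 of these (adjusted p = 0.000872 for Gln, 0.0134 for Gln-CTG and 0.000582 for Gln-TTG), and so did edgeR without crosslinked input 1 (0.000686, 0.00838 and 0.00216). Gln and Gln-TTG were also called by edgeR without crosslinked input 2 (0.0108 and 0.0226). In the amino-acid table those fits called 88 features higher and 216 lower without input 1, and 11 higher and 48 lower without input 2; in the anticodon table they called 88 higher and 197 lower, and 20 higher and 48 lower. In both of these fits only the crosslinked pull-downs had a replicate, so the spread came from them alone and the lone input was assumed to vary like them. Gln-TTG averaged 0.826 RPM in crosslinked inputs and was tested only through the pull-downs, so its calls by DESeq2 and edgeR are no support. The difference for Glu was 2.17 (edgeR adjusted p = 0.334), or 1.61 above the median of all features, and it was 2.28 for Glu-CTC and 2.16 for Glu-TTC (adjusted p = 0.329 and 0.353). Lys was at 0.61 (edgeR adjusted p = 0.607), or 0.06 above the median of all features, and its sign turned with DESeq2 (-0.022). Lys-CTT was at 1.10 (adjusted p = 0.441). Lys-TTT was at -0.48 (adjusted p = 0.827), 1.03 below that median, and its sign turned without crosslinked input 1 (0.32) and with limma on log2(RPM + 1) (0.53).

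On the log2(RPM + 1) scale, which understates differences of genes with few reads, the tested members had a median difference of 2.78 with crosslinking and 0.75 without, where all tested features had -0.20 and -0.41. The 17 Gln and 19 Lys genes among them passed the filter on low values only through the pull-downs. Medians and counts that include these genes are therefore no support. Without crosslinking the median was 0.75 for Gln genes, -0.72 for Glu genes and 1.29 for Lys genes. Among the tested Glu isodecoders, Glu-CTC-1 (-0.76), Glu-TTC-1 (-0.97), Glu-TTC-2 (-0.92) and Glu-TTC-3 (-0.09) were below 0 there. Glu-CTC-2 (0.18) and Glu-CTC-4 (0.02) were above 0, where the median of all tested features was -0.41. The difference between crosslinked and non-crosslinked ratios had an unadjusted edgeR p under 0.05 for 3 Gln, 12 Glu and 0 Lys genes, and 0 of them passed after adjustment, where 11.6% of all tested features were higher at that unadjusted level. Of the 12 Glu genes 9 are copies of Glu-CTC-1. Summed by isodecoder, 6 had an unadjusted edgeR p under 0.05 and 0 passed after adjustment, where 11.6% of all features were higher at that unadjusted level. By edgeR they were Gln-CTG-2 (0.0455), Gln-TTG-1 (0.0181), Gln-TTG-3 (0.00505), Glu-CTC-1 (0.00490), Glu-TTC-1 (0.0466) and Glu-TTC-2 (0.0303). The Gln sums among them averaged 0.496, 0.233 and 0.509 RPM in crosslinked inputs. They passed the filter only through the pull-downs, so they are no support. Gln-TTG-1 and Gln-TTG-3 may share reads and are not treated as separate results. Lys-TTT-1 was the tested isodecoder with the largest non-crosslinked difference on this scale.

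**Figure D4:**
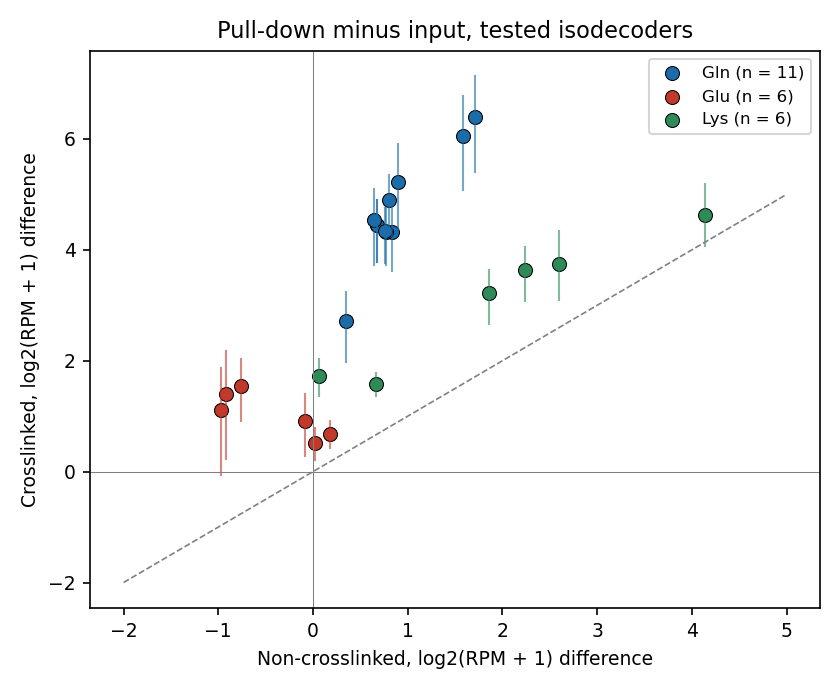
Pull-down minus input on the log2(RPM + 1) scale for the 23 tested isodecoders and genes without anticodon, in the non-crosslinked pair (x axis) and the crosslinked libraries (y axis; the point uses the mean of each group, the bar joins pairs 1 and 2). The dashed line marks equal differences; the 11 Gln points lie above it, the 6 Lys points closer to it, and the Glu points are at or left of 0.18 on the x axis.

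The authors' deposited table of enrichment ratios lists 51 of the 89 genes, and these are among the 52 with reads in all 6 libraries. How that ratio was formed is not given in the sources used here. In the authors' deposited table the 11 Gln genes had a median ratio of 804 (from 313.6 to 3545), the 20 Glu genes of 5.94 (from 2.82 to 8.34) and the 20 Lys genes of 26.4 (from 7.90 to 89.4). The order of the 3 amino acids was the same as in the crosslinked ratios above. Over 271 other tRNA genes the authors' deposited table had a median of 20.6, and over all 216085 features one of 1.37. Gln-CTG-5-1 ranked 3 of all features and first of the tRNA genes in the authors' deposited table, and Glu-CTC-4-1 ranked last of 322 tRNA genes. Of the 7 Gln genes whose crosslinked inputs rounded to 0 reads, 0 are in that list.

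The mitochondrial tRNAs for the same amino acids, which come from separate genes, did not follow the nuclear order. The mitochondrial Glu tRNA had 5.73 and 5.43 RPM in crosslinked inputs, 23.9 and 25.8 RPM in crosslinked pull-downs, and 4.66 and 3.27 RPM without crosslinking (edgeR log2 ratio 2.25, adjusted p = 0.000444). The mitochondrial Lys tRNA had 44.9 and 27.5 RPM in inputs, 83.8 and 77.2 RPM in pull-downs, and 5.09 and 7.06 RPM without crosslinking (log2 ratio 1.25, adjusted p = 0.0304). The mitochondrial Gln tRNA had 7.73 and 5.10 RPM in inputs, 7.01 and 8.53 RPM in pull-downs, and 8.27 and 5.39 RPM without crosslinking (log2 ratio 0.37, adjusted p = 0.401). Its pull-downs and inputs overlapped. Of 21 tested mitochondrial tRNAs, 10 were called higher and 0 lower, against 6.44% and 3.50% of all tested features.

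Of the synthetases that charge Gln, Glu and Lys tRNAs, 3 pre-mRNA features (Eprs, Kars and Qars) and 8 exon features, which include the synthetase complex members Aimp1 and Eef1e1, were tested. By edgeR 0 of these were called, where 6.44% of all features were called higher and 3.50% lower, and 0 were higher and 5 lower at an unadjusted p under 0.05, where 8.42% of all features were higher and 14.4% lower at that level. The medians of their edgeR log2 ratios were -0.53 for pre-mRNA and -0.45 for exons, with -0.21 over all features.

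The level of the 3 amino acids together was 301 and 241 RPM in crosslinked inputs, 751 and 1769 RPM in crosslinked pull-downs, with 331 and 246 RPM in the non-crosslinked input and pull-down. This was 4.65-fold over input with crosslinking and 0.742-fold without, where all other tRNA genes together were 6.36-fold and 0.832-fold. The other isoacceptors whose log2(RPM + 1) was most like this sum over the 6 libraries were Thr-AGT (Pearson's r = 0.983), Leu-CAA (0.981), Arg-CCG (0.979), Ala-AGC (0.979) and Gly-CCC (0.978), of 41 compared. These are descriptions over 6 libraries whose total tRNA share ran from 0.0915% to 0.903%, and the part of this in the correlations was not tested.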

How the data were processed

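The authors deposited, for each library, expected counts for each annotated feature, which hold fractions of reads, and these counts as RPM of all reads; both units were read from the values. They also deposited 1 table of enrichment ratios for the series. The submitters' processing notes name bcl2fastq 2.19, STAR 2.5.2b, bedtools 2.29.0 and build mm10; how features were counted and annotated, and whether PCR duplicates were removed, is not given in the sources used here.

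Counts were rounded and compared with edgeR 4.0.16 (quasi-likelihood test, R 4.3.3) on the 2 crosslinked pull-downs and 2 crosslinked inputs. Library sizes were the annotated reads; reads without annotation (6.99% to 14.4%) stayed out. Features had to average 1 RPM or more in the 4 crosslinked libraries, and calls a Benjamini-Hochberg adjusted p under 0.05 over all tested features. The design allowed for counts or normalized values, and the count test was used. For sums, tRNA features were replaced by their sums per amino acid, anticodon or isodecoder within the whole table; isodecoder sums, and the crosslinking test on them and on single genes, were added after the data were seen. The test of crosslinking dependence was an interaction term over all 6 libraries. Shares have 95% Wilson intervals; ratio intervals come from read numbers, and 3 reads per library were the floor. Intervals and floors cover counting error only.

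Tested on simulated data, in which 200 of 39872 features differed by a log2 ratio of 2, edgeR recovered 180 (90%) with 17 false calls for pull-down over input, and 50 (25%) with 14 false calls for the interaction. Alternatives were TMM factors, other library sizes and filters, limma 3.58.1, DESeq2 1.42.0, a replicate block, other pseudocounts and each crosslinked library left out. Over 39872 features, deviations of same-numbered crosslinked libraries correlated at 0.111 in 2 pairs; nothing in the labels says that a number marks a shared culture. Named genes were, per anticodon, the 3 most abundant over crosslinked pull-downs and, per amino acid, those with the highest and lowest edgeR ratio and the highest non-crosslinked ratio; other isodecoders and genes were named after their values were seen. The members and lists were chosen with earlier results of these data known. Copies are described through their isodecoder sum. Sequences and coordinates of single tRNA genes were not used here. One further gene list is not reported here.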

Additional observations from a re-analysis of the deposited data

Results flagged for a closer look

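Glu tRNA was higher in both crosslinked pull-downs than in their inputs while without crosslinking its pull-down lay below the input, at 0.555-fold for the sum, 0.598-fold for Glu-CTC and 0.526-fold for Glu-TTC. The difference between the crosslinked and the non-crosslinked ratio did not pass edgeR's test (adjusted p = 0.334, 0.329 and 0.353), and the non-crosslinked pair has no replicate. Over all tested features with reads on both sides the median non-crosslinked ratio was 0.530-fold, so the values below 1 are near that of the typical feature.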

How the results depend on the processing

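Without the filter on low values, 942743 features were tested and edgeR called 0 members (0 features in all, 27538 higher at an unadjusted p under 0.05); log2 ratios were 7.96 for Gln, 4.53 for Lys, 8.24 for Gln-CTG, 7.33 for Gln-TTG, 1.64 for Glu-CTC, 4.15 for Lys-CTT and 6.04 for Lys-TTT, with adjusted p from 0.151 to 0.578. DESeq2 took Glu (1.66), Glu-TTC (1.58) and the crosslinking differences of Gln (4.31), Gln-CTG (3.70) and Gln-TTG (4.58) past the threshold and turned that of Lys to -0.022; limma turned that of Lys-TTT to 0.53. The cause was not tested. With a pseudocount of 0.1 RPM the median log2 difference of tested members was 3.94 with crosslinking and 2.40 without; with all members it was 1.42 and 0.042.

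Of 22 called single genes chosen by the naming rule, 11 moved by over 1.5 times without crosslinked input 1, 2 without input 2, 0 without pull-down 1 and 11 without pull-down 2. With each crosslinked library left out in turn, log2 ratios ran from 7.19 to 8.80 for Gln, 0.57 to 1.95 for Glu, 4.05 to 4.89 for Lys and 0.33 to 1.93 for Glu-TTC. Crosslinking differences ran from 4.16 to 5.76 for Gln, 3.55 to 5.38 for Gln-CTG, 4.44 to 5.90 for Gln-TTG and -0.997 to 0.32 for Lys-TTT. They ran from 1.32 to 2.70 for Glu, 1.75 to 2.66 for Glu-CTC and 1.15 to 2.75 for Glu-TTC. In each of these fits 1 group held a single library, which was assumed to vary like the replicated group that gave the spread.

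The replicate numbers are shared by the crosslinked groups. With them as a block 37 members were called in place of 46, where 2529 of 39872 features were called higher and 1655 lower. Glu-CTC (1.57, edgeR adjusted p = 0.0581) was not called, and the other sums by amino acid and anticodon kept their call. Of the main results under all alternatives, 220 values kept direction and side of the threshold, 14 newly passed it, 8 no longer passed it, 5 moved and 3 changed sign. Depth limits the ratios of Gln and Lys-TTT, whose crosslinked inputs held 48 and 19 reads of Gln and 22 and 9.47 of Lys-TTT.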
